A study of Mus musculus with 8 samples.

Results

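The genes described here were *Acta2*, *Tagln*, *Tagln2*, *Cnn1*, *Cnn2*, *Myl9*, *Tpm1*, *Tpm2*, *Flna* and *Actn1*, which encode components of contractile actin filaments and include known targets of serum response factor (SRF). They are 10 of the 55414 genes in the deposited table and are defined by gene symbol. They were chosen with earlier results of these data known, so their counts are a description. RNA was sequenced from B16F10, a line of mouse melanoma cells, in 4 groups of 2 libraries. WT cells and CypD KO cells were kept at 21% O2 for 24 h. In the CypD KO cells, *Ppif*, the gene for the mitochondrial isomerase cyclophilin D (CypD), had been disrupted with CRISPR/Cas9 and clones had been selected with puromycin. Control cells, a stable line carrying the pcDNA vector, and CypD OE cells, a stable line carrying pcDNA-CypD, were kept at 1% O2 for 24 h, and both had been selected as G418-resistant clones. The sources give neither the number of clones behind each group nor whether the 2 libraries of a group came from separate cultures, so the p-values measure the spread between these libraries only, which may be technical.

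Contraction of a non-muscle cell rests on myosin II pulling on actin filaments that tropomyosins coat, calponins and transgelins bind, and alpha-actinins and filamins cross-link. SRF is a transcription factor that binds a short DNA element called the CArG box in the promoters of many of these genes. Its coactivators of the MRTF family are held by actin monomers and enter the nucleus when monomers are drawn into filaments, so that the genes for the filament system are transcribed according to the state of the filament system itself. A second class of coactivators, the ternary complex factors (TCFs, the Elk proteins), directs SRF to immediate early genes such as *Fos* and *Egr1*. In smooth muscle and in myofibroblasts the MRTF branch, with myocardin, drives *Acta2*, *Tagln* and *Cnn1*, which serve as markers of the contractile state.

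CArG boxes were looked for on both strands of the 500 bases before the canonical start site of every protein-coding gene (GRCm39, GENCODE annotation). An exact box lay in the windows of 3 of the 10 genes (*Tagln*, *Cnn2* and *Actn1*), against 2.76% of all 21580 windows. The 10 genes include known SRF targets by choice, so a higher share than in all windows is partly built into that choice. A box with at most 1 G or C in its central run of A and T bases, a search that includes exact boxes and was added after the exact result was known, lay in 5 of the 10 windows (also *Myl9* and *Flna*) and in 17.1% of all windows. The core of the hypoxia response element (ACGTG or GCGTG, both strands) was found in 5 of the 10 windows (*Cnn1*, *Cnn2*, *Tagln*, *Tagln2* and *Tpm2*) and in 56.0% of all windows. The 5 boxes are printed because they are the element through which SRF is known to act, each 5′ to 3′ on the strand of the gene with 10 bases on either side and the box in capitals.
*Tagln*, chr9:45847449-45847478, minus strand, 64 bases before the start: agggtcctgcCCATAAAAGGtttttcccgg
*Cnn2*, chr10:79824368-79824397, plus strand, 33 bases before the start: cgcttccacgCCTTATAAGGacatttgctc
*Actn1*, chr12:80307991-80308020, minus strand, 463 bases before the start: tacaggtagaCCATTTTAGGgctcttccta
*Myl9*, chr2:156616992-156617021, plus strand, 82 bases before the start, 1 central G or C: aaaaaaaggaCCATACTTGGccgggtgaaa
*Flna*, chrX:73290487-73290516, minus strand, 344 bases before the start, 1 central G or C: aaagaaagtcCCTTGTAAGGgtgtgcctgc
The *Flna* box lies inside the annotated gene, since other transcripts of *Flna* start further upstream. These are matches of letters and not measured binding sites, and a window without a match says only that the letters are not in it.

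The deposited values were TPM, relative transcript abundances scaled for transcript length and to a fixed total, so that levels can be set side by side between genes. Between 17942 and 19692 genes were above 0 per library, with both CypD KO libraries highest, and 1 fragment on a transcript of 1000 effective bases was worth 0.082 to 0.097 TPM. *Ppif* was at 50.7 and 50.0 TPM in WT against 10.4 and 12.1 TPM in CypD KO (difference of log2(TPM + 1) -2.07, limma adjusted p = 3.81e-06). It was at 44.6 and 42.3 TPM in Control against 50.3 and 49.3 TPM in the CypD OE-labelled libraries (0.19, limma adjusted p = 0.0794), and because this rise was small and did not pass the threshold, those libraries are named by their label throughout. The paper reports that western blots showed overexpression of the CypD protein in its stable cells, and these data hold no protein levels. All 7 melanocyte markers were detected in every library, with summed levels of 12433 to 20984 TPM.

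Of the 10 genes, 6 were higher in CypD KO than in WT cells and 0 were lower (limma on log2(TPM + 1) over 13526 genes, adjusted p under 0.05). Among all genes tested, 30.1% were called higher and 18.4% lower in this comparison (48.4% in either direction), and the median difference of log2(TPM + 1) was 0.09 against 1.15 over the 8 members tested. With median-of-ratios rescaling, the 4066 higher and 2486 lower genes became 3346 higher and 3285 lower, while the count of members stayed at 6. *Acta2* and *Tpm2* passed the filter on low values (1 TPM in 2 libraries) only through the CypD KO libraries in which they were high, so neither carries weight in that count or median. With the filter applied to the 6 libraries outside CypD KO, an alternative chosen after the data were seen, 5 of the 6 members tested were higher and 0 lower (median 1.15), against 29.0% and 19.1% of 12950 genes (median 0.07). At 1% O2 the CypD OE-labelled libraries differed from Control in 2 of the 10 genes, *Tagln* lower and *Flna* higher, with 18.3% of all genes called lower and 19.0% higher (37.4% in either direction). Counted without a test, both CypD KO libraries lay above both WT libraries for 7 of the 8 tested members (*Acta2* and *Tpm2* among them) and below them for 1, against 44.4% and 29.6% of all genes tested. The CypD OE-labelled libraries lay above both Control libraries for 2 of the 8 and below them for 2, against 34.8% and 33.9% of all genes tested. Loss of *Ppif* and the selection of clones with puromycin differ together between CypD KO and WT and cannot be told apart. The CypD OE-labelled and Control cells are likewise separate selected lines, so the insert and the line cannot be told apart. In bulk libraries, more cells expressing a gene and more of its RNA per cell cannot be told apart.

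**Figure D1:**
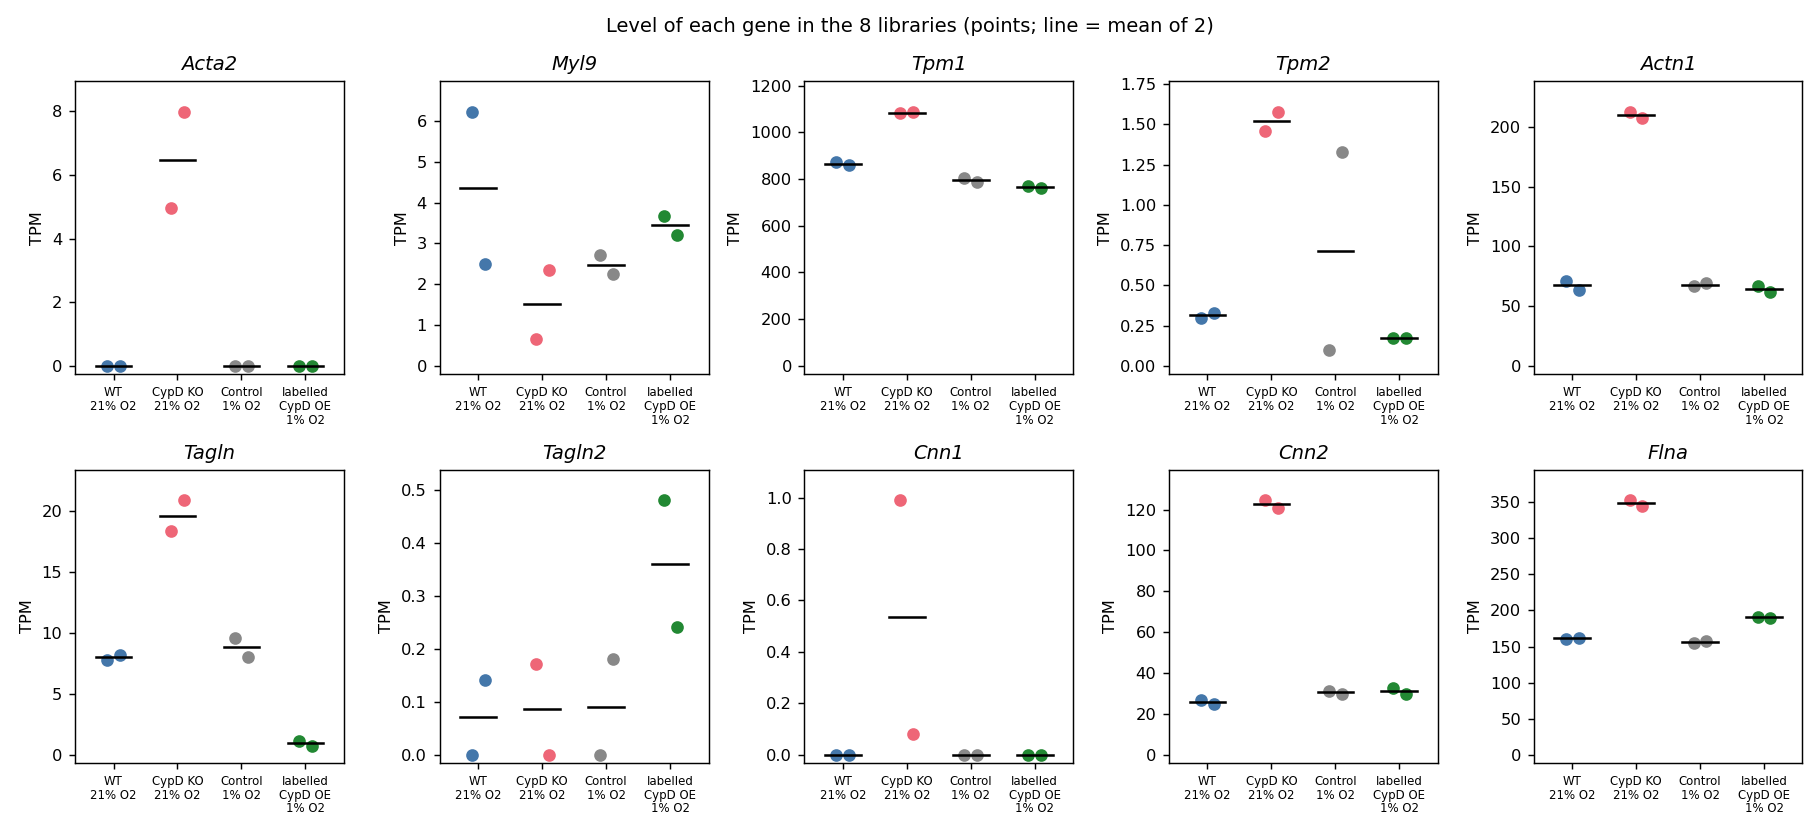
TPM of each of the 10 genes (vertical axes from 0, each panel with its own scale) in the 4 groups; points are libraries and lines are the means of 2. The CypD KO libraries are highest for *Acta2*, *Tagln*, *Cnn2*, *Tpm1*, *Flna* and *Actn1*, and the CypD OE-labelled libraries are lowest for *Tagln*.

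*Acta2* encodes smooth muscle alpha-actin, the actin isoform of smooth muscle cells and of myofibroblast stress fibres (chromosome 19, 34217737 to 34232990). Its level was 4.96 and 7.99 TPM in CypD KO, and it was listed at 0 in the other 6 libraries. At the depth estimated here these levels correspond to approximately 149.6 and 226.0 fragments. *Acta2* was thus detected in both CypD KO libraries and in no other. The difference of log2(TPM + 1) was 2.87 (SE 0.23, limma adjusted p = 9.35e-05), and it has no fold change because WT was listed at 0. The test pooled the spread over the 4 groups and drew on genes of like level. Only the CypD KO libraries varied, and the groups listed at 0 lowered the pooled spread. The SE and adjusted p therefore understate the spread between the 2 CypD KO libraries. On this scale the value depends on the amount added before taking logarithms, and it was 6.0 with 0.1 in place of 1. *Stambpl1*, which overlaps *Acta2* on the opposite strand, was listed at 0 in every library.

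Smooth muscle alpha-actin remained a minor actin even in CypD KO, at 0.118% of the summed TPM of the 6 actin genes. The cytoplasmic actins *Actb* and *Actg1* made up nearly all of the rest. *Actg1* was at 1449 and 1375 TPM in WT against 2699.9 and 2625 TPM in CypD KO (difference of log2(TPM + 1) 0.92, limma adjusted p = 6.92e-06). *Actb* was at 2577 and 2435 TPM in WT against 2823 and 2836 TPM in CypD KO (0.18, limma adjusted p = 0.003). The share of *Actb* in all actin was 64.0% in WT, 51.4% in CypD KO, 62.8% in Control and 62.4% in the CypD OE-labelled libraries. Of the 5 other actin genes, 2 were tested. Both rose in CypD KO, where 30.1% of all genes tested were called higher, and 1 remained called with median-of-ratios rescaling. Neither was called between the CypD OE-labelled libraries and Control or between Control and WT.

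*Myl9* encodes a regulatory light chain of myosin II, whose phosphorylation switches the motor on (chromosome 2, 156617084 to 156623579). It was at 6.23 and 2.50 TPM in WT, 0.65 and 2.36 TPM in CypD KO, 2.72 and 2.24 TPM in Control, and 3.68 and 3.20 TPM in the CypD OE-labelled libraries. It was the 1 tested member that was lowest in CypD KO, although the second WT and the second CypD KO library differed by little. The difference between CypD KO and WT in log2(TPM + 1) was -1.10 (SE 0.42, limma adjusted p = 0.0701), which did not pass the threshold. Leaving out WT replicate 2 or CypD KO replicate 2 gave -1.62 and -1.61 with limma adjusted p-values of 0.027 and 0.0319, and over all alternatives the adjusted p ran from 0.027 to 0.33. The lncRNA gene 5730471H19Rik overlaps *Myl9* on the opposite strand and reached 7.93 TPM, and whether reads were counted by strand is not given in the sources used here, so the reads of the pair may not have been separated.

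Most regulatory light chain RNA came from the paralogs of *Myl9*. *Myl9* made up 0.824% of the summed TPM of the 3 regulatory light chain genes in WT and 0.225% in CypD KO. *Myl12a* was at 302 and 294 TPM in WT and rose to 458 and 481 TPM in CypD KO (difference of log2(TPM + 1) 0.65, limma adjusted p = 2.21e-05). *Myl12b* fell from 229 and 214 TPM to 180 and 196 TPM (-0.24, limma adjusted p = 0.00894). The essential light chain gene *Myl6* rose from 487 and 495 TPM to 932 and 949 TPM (0.94, limma adjusted p = 1.17e-06). The summed level of the regulatory light chains was 524 ± 18.5 TPM (SD, n = 2) in WT and 659 ± 28.7 TPM (SD, n = 2) in CypD KO. *Myl12a* and *Myl12b* are near-identical neighbours, so the split of reads between them is uncertain.

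*Tagln* encodes transgelin (SM22-alpha), an actin-binding protein of the calponin family and an early marker of smooth muscle differentiation (chromosome 9, 45840909 to 45847404). It was at 7.79 and 8.15 TPM in WT, 18.4 and 20.9 TPM in CypD KO, 9.60 and 7.99 TPM in Control, and 1.08 and 0.74 TPM in the CypD OE-labelled libraries. Both CypD KO libraries were above all others and both CypD OE-labelled libraries were below all others. The CypD KO mean was 2.46 times the WT mean (difference of log2(TPM + 1) 1.2, SE 0.14, limma adjusted p = 0.000484). The mean of the CypD OE-labelled libraries was 10.3% of the Control mean (-2.36, SE 0.14, limma adjusted p = 4.38e-05), on approximately 18.7 and 13.0 fragments. *Tagln* was the 1 member called in opposite directions in these comparisons, and Control and WT did not differ beyond their spread (0.12, 95% interval -0.20 to 0.45, limma adjusted p = 0.562). *Pcsk7* overlaps *Tagln* on the opposite strand at up to 13.3 TPM, and reads of the pair may not have been separated.

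*Cnn2* encodes calponin 2, the calponin found in many non-muscle cells, where it stabilises actin filaments (chromosome 10, 79824410 to 79831896). It was at 26.8 and 24.8 TPM in WT against 125 and 121 TPM in CypD KO. The libraries of the other groups were close to WT, at 31.1 and 29.7 TPM in Control and 32.6 and 29.7 TPM in those labelled CypD OE. The CypD KO mean was 4.75 times the WT mean (difference of log2(TPM + 1) 2.21, SE 0.07, limma adjusted p = 1.87e-06). Between the CypD OE-labelled libraries and Control the difference was 0.03 (95% interval -0.12 to 0.19, limma adjusted p = 0.744). *Cnn2* was 0.23 higher in Control than in WT (limma adjusted p = 0.0455), with both Control libraries above both WT libraries.

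*Cnn1* and *Tagln2* did not pass the filter on low values. *Cnn1*, which encodes the calponin of differentiated smooth muscle (chromosome 9, 22010512 to 22020926), was at 0.99 and 0.08 TPM in CypD KO and was listed at 0 in the other 6 libraries. Its CypD KO libraries thus differed widely, with approximately 25.8 fragments in the first and 2.0 in the second, and without the filter the difference did not pass the threshold (0.55, limma adjusted p = 0.211). *Cnn1* also overlaps *Elof1* on the opposite strand, which reached 65.9 TPM. *Tagln2*, which encodes the transgelin of non-muscle tissues (chromosome 1, 172327426 to 172334947), was at 0 and 0.14 TPM in WT, 0.17 and 0 TPM in CypD KO, 0 and 0.18 TPM in Control, and 0.48 and 0.24 TPM in the CypD OE-labelled libraries. No difference in *Tagln2* was detectable at this depth, since the highest level amounts to approximately 9.0 fragments.

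Across the 6 calponin and transgelin genes, *Cnn3*, which encodes the acidic calponin and is not a member, was the most abundant in every group. Its level fell from 432 and 425 TPM in WT to 360 and 355 TPM in CypD KO (difference of log2(TPM + 1) -0.26, limma adjusted p = 0.000593), and from 421 and 424 TPM in Control to 318 and 334 TPM in the CypD OE-labelled libraries (-0.37, limma adjusted p = 0.000204). *Cnn2* made up 5.58% of the summed TPM of the family in WT, 24.5% in CypD KO, 6.58% in Control and 8.68% in the CypD OE-labelled libraries. *Tagln* made up 1.72%, 3.92%, 1.90% and 0.254% in the same order. The family total was 463 ± 6.06 TPM (SD, n = 2) in WT and 501 ± 5.46 TPM (SD, n = 2) in CypD KO. The makeup of the calponin family thus differed between CypD KO and WT by more than its total did.

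**Figure D2:**
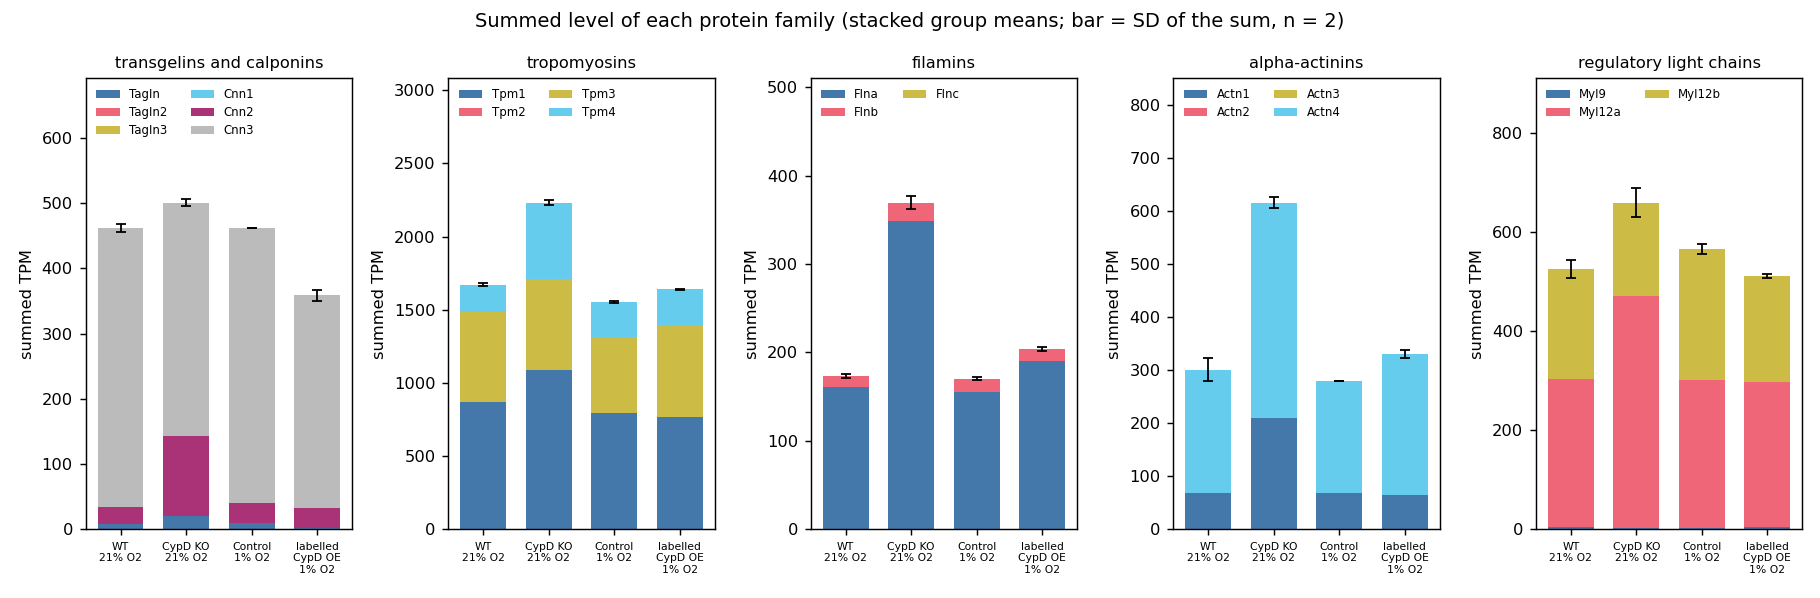
Summed TPM of 5 protein families (vertical axes from 0, each panel with its own scale) in the 4 groups, stacked by gene as group means; error bars are the SD of the sum over 2 libraries. The *Cnn2* part grows from 5.58% of the calponin family in WT to 24.5% in CypD KO, and the *Tpm4* part from 11.3% to 23.4% of the tropomyosins.

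*Tpm1* encodes alpha-tropomyosin, a coiled coil along the actin filament that governs the access of myosin, and had the highest level of the 10 genes (chromosome 9, 66929870 to 66956953). It was at 873 and 859 TPM in WT, 1081 and 1089 TPM in CypD KO, 803 and 785 TPM in Control, and 769 and 760.1 TPM in the CypD OE-labelled libraries. Both CypD KO libraries lay above the other 6. The CypD KO mean was 1.25 times the WT mean (difference of log2(TPM + 1) 0.33, SE 0.02, limma adjusted p = 6.42e-05), and the difference was 0.23 with median-of-ratios rescaling. The CypD OE-labelled libraries lay below both Control libraries by -0.05 (95% interval -0.11 to 0.00, limma adjusted p = 0.111). Control lay below WT by -0.12 (limma adjusted p = 0.0103).

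*Tpm2*, which encodes beta-tropomyosin (chromosome 4, 43514697 to 43524949), had a far lower level. It was at 0.30 and 0.33 TPM in WT, 1.46 and 1.58 TPM in CypD KO, 0.10 and 1.33 TPM in Control, and 0.17 and 0.17 TPM in the CypD OE-labelled libraries. Both CypD KO libraries were above all others, but the second Control library came close to them and stood far from the first. The CypD KO mean was 4.83 times the WT mean, yet the difference of log2(TPM + 1) was 0.94 (SE 0.34, limma adjusted p = 0.0564). It passed the threshold when the libraries of the 2 groups were fitted alone (limma adjusted p = 0.0105) and without Control replicate 1 or 2 (0.00655 and 0.00752), and over all alternatives the adjusted p ran from 0.00655 to 0.166. Without Control replicate 1, *Tpm2* was also lower in the CypD OE-labelled libraries than in Control (-0.99, limma adjusted p = 0.0193), against -0.45 (limma adjusted p = 0.339) with it and adjusted p-values of up to 0.799 in the alternatives.

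The tropomyosin total was 1672 ± 9.21 TPM (SD, n = 2) in WT and 2233 ± 14.2 TPM (SD, n = 2) in CypD KO. More of this difference came from *Tpm4* than from *Tpm1*. *Tpm4*, which encodes a tropomyosin of non-muscle stress fibres and is not a member, rose from 183 and 194 TPM to 521 and 526 TPM (difference of log2(TPM + 1) 1.47, limma adjusted p = 1.16e-06), and its share of the total went from 11.3% to 23.4%. The share of *Tpm1* was 51.8% in WT and 48.6% in CypD KO.

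*Flna* encodes filamin A, which cross-links filaments into networks and ties them to membrane receptors (chromosome X, 73265347 to 73293456). It was at 160.4 and 162 TPM in WT, 353 and 345 TPM in CypD KO, 154 and 157 TPM in Control, and 191.0 and 190.0 TPM in the CypD OE-labelled libraries. The 4 groups did not overlap. The CypD KO mean was 2.17 times the WT mean (difference of log2(TPM + 1) 1.11, SE 0.03, limma adjusted p = 1.17e-06). The mean of the CypD OE-labelled libraries was 1.22 times the Control mean (0.29, SE 0.03, limma adjusted p = 0.0004). *Flna* was the only member called higher in both comparisons, and it made up between 91.4% and 94.5% of filamin RNA in every group.

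*Actn1* encodes alpha-actinin 1, which bundles filaments and anchors them at focal adhesions (chromosome 12, 80212233 to 80307547). It was at 71.2 and 63.6 TPM in WT against 213 and 207 TPM in CypD KO. In Control it was at 66.5 and 69.5 TPM, and in the CypD OE-labelled libraries at 67.1 and 61.5 TPM. The CypD KO libraries stood alone, and the libraries of the other 3 groups overlapped. The CypD KO mean was 3.12 times the WT mean (difference of log2(TPM + 1) 1.63, SE 0.07, limma adjusted p = 6.44e-06). Between the CypD OE-labelled libraries and Control the difference was -0.08 (95% interval -0.24 to 0.08, limma adjusted p = 0.392). *Actn4*, the more abundant alpha-actinin, rose in CypD KO as well, from 244 and 221 TPM to 409.7 and 400.5 TPM (0.80, limma adjusted p = 2.85e-05), and *Actn1* went from 22.4% to 34.1% of the family.

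**Figure D3:**
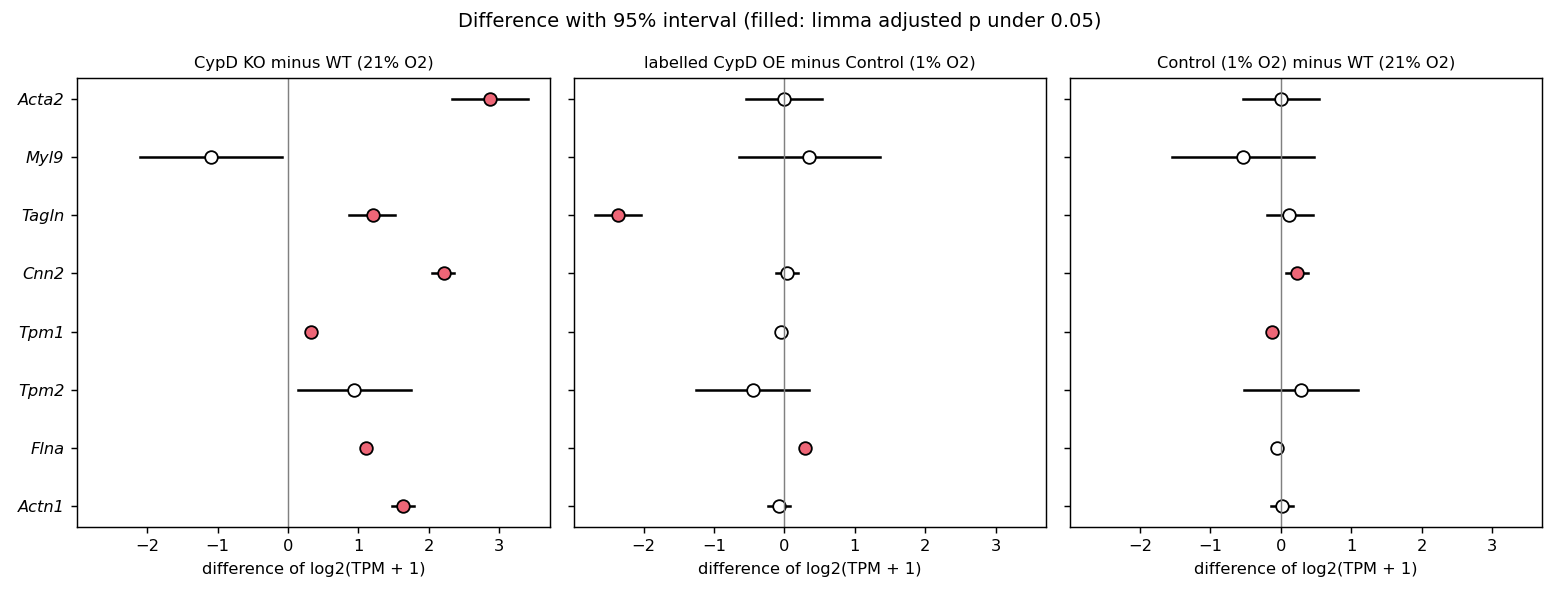
Differences of log2(TPM + 1) for the 8 tested members in 3 comparisons, with 95% intervals from limma; filled points have an adjusted p under 0.05. In CypD KO against WT, 6 points are filled and above 0, while in the other 2 panels most intervals include 0.

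The groups of each tested member were ordered by their mean levels, and neighbours in that order were tested in the same libraries. Of the 24 neighbouring steps of the 8 tested members, 10 were called. The pairs were thus picked from the values tested, so this count is a description. The steps of *Acta2* among the groups listed at 0 could not be called. Among all genes tested, 44.0% were called between CypD KO and Control, 48.9% between CypD KO and the CypD OE-labelled libraries, and 27.7% between the latter and WT. CypD KO was the highest group for 7 members, of which *Acta2* and *Tpm2* had passed the filter through it alone, and the lowest for *Myl9*. The step from CypD KO to the next group was called for *Acta2*, *Tagln* (1.08 above Control, limma adjusted p = 0.000909), *Cnn2* (1.95 above the CypD OE-labelled libraries), *Tpm1* (0.33 above WT), *Flna* (0.87 above the CypD OE-labelled libraries) and *Actn1* (1.61 above Control). It was not called for *Tpm2* (0.65 above Control, limma adjusted p = 0.162). Below CypD KO, *Tagln* was lower in the CypD OE-labelled libraries than in WT by 2.24 (limma adjusted p = 0.000153), and *Flna* was 0.24 higher in them than in WT (limma adjusted p = 0.00153). No step of *Myl9* was called.

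Between Control and WT, 1 member was called higher (*Cnn2*) and 1 lower (*Tpm1*) of the 8 tested, with 12.1% of all genes called in each direction (24.2% in either). Both Control libraries lay above both WT libraries for 1 member and below them for 2, against 32.2% and 29.8% of all genes tested. Oxygen and the pcDNA line with its selection differ together between these groups and cannot be told apart. The WT libraries are shared with the CypD KO comparison and the Control libraries with that of CypD OE. Both calls were lost without WT replicate 1 (limma adjusted p = 0.0595 for *Cnn2* and 0.0582 for *Tpm1*) and without Control replicate 2 (0.0942 and 0.0513). The *Cnn2* call was also lost without WT replicate 2 (0.183), Control replicate 1 (0.172), CypD KO replicate 1 (0.0763) or CypD KO replicate 2 (0.0761), and over all alternatives its adjusted p ran from 0.0268 to 0.183 and that of *Tpm1* from 0.00823 to 0.107. The *Actn1* difference was 0.01 (95% interval -0.14 to 0.17) and the *Flna* difference -0.05 (95% interval -0.12 to 0.02).

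Across the 8 libraries, the members differed in how alike their patterns were. Pearson's r of log2(TPM + 1) was 0.99 between *Cnn2* and *Actn1* and between *Acta2* and *Actn1*, 0.46 between *Tagln* and *Flna*, and -0.67 to -0.48 between *Myl9* and the others. These values describe 8 libraries in 4 groups, and the libraries of a group are not independent points. The 5 genes outside the lists with the pattern most like the mean z-score of the 8 tested members were *Elfn1* (r = 0.995), *Cyp1b1*, *Gm34256* and *Tspo* (r = 0.994 each), and *Wincr1* (r = 0.991). Of these, *Tspo*, which encodes a translocator protein of the outer mitochondrial membrane, had the highest level, at 15.98 and 13.5 TPM in WT, 51.5 and 55.4 TPM in CypD KO, 12.3 and 13.6 TPM in Control, and 11.6 and 8.87 TPM in the CypD OE-labelled libraries. The other 4 did not exceed 18.4 TPM in any library and passed the filter on low values only through CypD KO. *Acta2* and *Tpm2*, which are part of the score, also passed it only through CypD KO. The r values that involve these genes are thus partly fixed by the filter and carry no weight.

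Other genes of the pathway were counted by list, and each count is read against the 30.1% of all genes called higher and 18.4% called lower in CypD KO. Of 12 paralogs of the members, 8 were tested, and in CypD KO 5 were higher and 2 lower than in WT (median difference of log2(TPM + 1) 0.68), or 3 lower with median-of-ratios rescaling. Of 15 other MRTF-SRF targets, 13 were tested and 11 were higher and 0 lower (median 1.65), although 1 was called lower with median-of-ratios rescaling. *Ankrd1*, *Lmod1* and *Tgfb1i1*, 3 of the 11, passed the filter on low values only through CypD KO, and with the filter applied outside CypD KO 8 of 10 were higher and 0 lower (median 1.21). *Ccn2*, which encodes a secreted matricellular protein, rose from 9.01 and 11.7 TPM to 121 and 122 TPM (3.44, limma adjusted p = 3.30e-06). Its relative *Ccn1* rose from 36.7 and 39.4 TPM to 214 and 214 TPM (2.46, limma adjusted p = 6.57e-07). Whether SRF or other factors set the levels of the genes in this list was not tested in any comparison. The list of 18 genes for the myosin II motor and its switches also holds LIM kinase, cofilin and destrin genes, which act on actin filaments. Of these 18, 16 were tested and 11 were higher and 1 lower (median 0.59). Among those higher was *Cald1*, which encodes the actin-binding protein caldesmon (1.61, limma adjusted p = 8.30e-07).

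The genes for SRF and its cofactors were themselves measured. *Srf* was at 20.4 and 24.7 TPM in WT against 34.0 and 32.9 TPM in CypD KO (difference of log2(TPM + 1) 0.56, limma adjusted p = 0.00566). *Mrtfa* rose from 10.2 and 10.9 TPM to 15.0 and 13.8 TPM (0.42, limma adjusted p = 0.0234), and *Mrtfb* from 15.7 and 16.8 TPM to 21.5 and 19.1 TPM (0.30, limma adjusted p = 0.0239). The TCF gene *Elk3* rose from 24.7 and 24.6 TPM to 42.5 and 42.7 TPM (0.77, limma adjusted p = 3.39e-05). Of the 7 genes of this list, 6 were tested and 5 were higher, but 2 with median-of-ratios rescaling and 3 without a filter on low TPM or in a fit of the 2 groups. *Myocd*, which encodes myocardin, was at 0.03 TPM or below in every library.

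In the CypD OE-labelled libraries, where 19.0% of all genes were called higher and 18.3% lower than in Control, 6 of the 13 tested MRTF-SRF targets were higher and 3 lower (median 0.05). *Ccn2* was at 10.6 and 12.1 TPM in Control against 29.9 and 30.0 TPM in the CypD OE-labelled libraries (difference of log2(TPM + 1) 1.33, limma adjusted p = 0.000256), and *Pdlim7*, which encodes a PDZ and LIM domain protein of stress fibres, was 0.77 higher (limma adjusted p = 0.000215). *Lmod1*, which encodes a leiomodin of smooth muscle, was at 1.19 and 0.98 TPM in Control against 0.56 and 0.33 TPM in the CypD OE-labelled libraries (-0.53, limma adjusted p = 0.0344). Of the 16 genes tested in the list of the myosin II motor and its switches, 2 were higher and 7 lower (median -0.04). A LIM kinase gene was among those higher and cofilin genes were among those lower. *Mylk*, which encodes myosin light chain kinase, was at 32.1 and 32.8 TPM in Control against 11.4 and 13.1 TPM in the CypD OE-labelled libraries (-1.34, limma adjusted p = 7.40e-05), and *Myh14*, which encodes a myosin II heavy chain, was 0.71 higher (limma adjusted p = 0.0158). The cofactor list had 3 higher and 0 lower of 6 tested, and 1 higher without a filter on low TPM. *Elk3* had the largest difference of this list (0.95, limma adjusted p = 2.45e-05), followed by *Srf* (0.41, limma adjusted p = 0.0262). The paralogs had 2 higher and 3 lower of 8. Between Control and WT, 12.1% of all genes were called in each direction. The counts of genes higher and lower there were 3 and 1 for the paralogs and 5 and 0 for the MRTF-SRF targets. They were 4 and 1 for the list of the myosin II motor and its switches, and 0 and 1 for the cofactors.

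**Figure D4:**
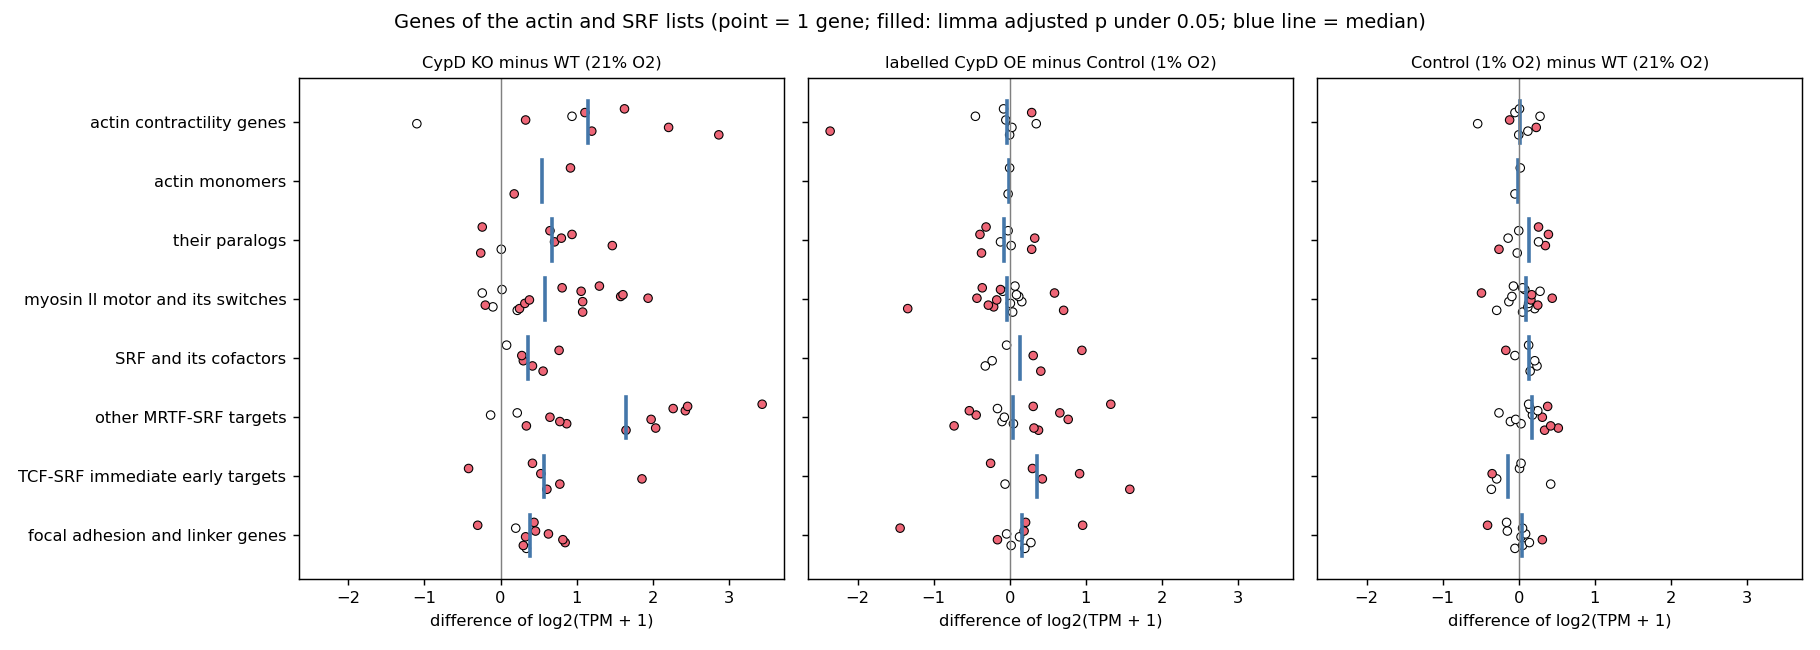
Differences of log2(TPM + 1) of the single tested genes in the members and 7 other lists (rows), in 3 comparisons; filled points have a limma adjusted p under 0.05 and blue lines are list medians. In CypD KO against WT the median of the other MRTF-SRF targets is 1.65 and that of the members 1.15, against 0.09 over all genes tested; without the genes that passed the filter only through CypD KO these medians are 1.21, 1.15 and 0.07.

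Markers of cells that contain contractile actin were read beside the members. The summed level of 8 smooth muscle and pericyte markers was 5.91 to 7.40 TPM in WT, 11.4 to 14.1 TPM in CypD KO, 5.18 to 6.0 TPM in Control, and 1.87 to 3.84 TPM in the CypD OE-labelled libraries. Without *Lmod1*, the sum of the other 7 markers was 5.16 to 6.66 TPM in WT, 3.42 to 5.23 TPM in CypD KO, 4.20 to 4.81 TPM in Control, and 1.54 to 3.28 TPM in the CypD OE-labelled libraries. The higher sum in CypD KO thus came from *Lmod1* alone. The defining markers *Myh11*, *Rgs5* and *Myocd* did not exceed 0.08 TPM in any library, and of the 3 markers tested *Lmod1* was higher in CypD KO (0.74 and 0.75 TPM in WT, 8.85 and 7.95 TPM in CypD KO, limma adjusted p = 3.80e-05) and *Pdgfrb* lower (-0.70, limma adjusted p = 0.00794). *Des* was not called in CypD KO (-0.51, limma adjusted p = 0.252) or in the CypD OE-labelled libraries (-0.65, limma adjusted p = 0.176). *Lmod1* is also in the list of MRTF-SRF targets and passed the filter only through CypD KO.

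The summed level of 8 fibroblast markers was 17.3 to 19.9 TPM in WT, 75.3 to 75.7 TPM in CypD KO, 21.7 to 24.3 TPM in Control, and 10.04 to 11.6 TPM in the CypD OE-labelled libraries. *Dcn* and *Thy1* were listed at 0 in every library and *Lum* did not exceed 0.08 TPM. Of the 3 markers tested, *Col1a1* (3.80, limma adjusted p = 2.29e-05) and *Postn* (1.91, limma adjusted p = 9.47e-06) were higher in CypD KO and *Col1a2* lower (-1.79, limma adjusted p = 0.00176). All 3 were lower in the CypD OE-labelled libraries than in Control, where 18.3% of all genes tested were called lower. The part of these markers, and of the higher number of genes detected in CypD KO, in the levels of *Acta2*, *Tagln* and the other members was not tested. Of the 7 melanocyte markers, 1 was higher and 5 were lower in CypD KO than in WT, against 30.1% and 18.4% of all genes tested. In the CypD OE-labelled libraries 1 was higher and 4 were lower than in Control, against 19.0% and 18.3% of all genes. In Control 6 were higher and 0 lower than in WT, against 12.1% of all genes in each direction. In CypD KO, *Tyr*, which encodes tyrosinase, was higher by 1.97 (limma adjusted p = 4.02e-06) and the melanosome gene *Pmel* was lower (-0.64, limma adjusted p = 3.37e-05). In the CypD OE-labelled libraries, *Pmel* (-0.93, limma adjusted p = 1.15e-05) and *Mitf*, which encodes a transcription factor of melanocytes (-0.93, limma adjusted p = 1.86e-05), were lower.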

How the data were processed

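Total RNA was sequenced by the authors after ribosomal RNA depletion (KAPA RNA HyperPrep with RiboErase); per the labels and methods, reads were trimmed with Cutadapt 3.4, aligned to GRCm39 with STAR 2.7.8a and quantified with RSEM 1.3.1. The deposited TPM values were scaled by the authors to a fixed sum, so that a rise of abundant transcripts lowers all the others. They hold no read counts, which the authors tested with DESeq2 1.26.0. Here limma 3.58.1 (R 4.3.3) was run on log2(TPM + 1), a scale that compresses changes at low TPM, with 1 mean for each of 4 groups, a trend in mean expression and two-sided tests. Genes reaching 1 TPM in 2 or more of the 8 libraries (13526) entered, and the Benjamini-Hochberg threshold was 0.05. Exact permutation of 2 libraries against 2 gives no p below 0.333. Depth was read from the spacing of low values (84.0% to 86.9% within 0.15 of whole fragments, 30% if evenly spread).

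Across genes, replicates correlated by 0.983 to 0.985. In a simulation of the CypD KO comparison with 13526 genes, 78% of 200 genes shifted by 1 (log2) were called, and 10 unchanged genes. The simulation took its spread from these libraries and shifted far fewer genes than the 48.4% called in the data. Its rates therefore check the procedure and are not those of these data. The members and gene lists were chosen with earlier results of these data known. Named genes are the 10 members, *Ppif*, per list the 2 genes with the largest differences in the CypD KO and in the CypD OE comparison, genes of the SRF cofactor and marker lists, and the 5 genes most like the members. The value of 1 gene that this rule names is not reported here. *Actn4*, *Myl12a*, *Myl12b* and overlapping genes were named after their values were seen. Alternatives were a pseudocount of 0.1, no filter or one of 5 TPM, the filter applied outside CypD KO (chosen after the data were seen), median-of-ratios scaling, fitting 2 groups alone, a replicate block, no trend, and leaving out single libraries.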

Additional observations from a re-analysis of the deposited data

How the results depend on the processing

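For the 6 calls of members between CypD KO and WT and the 2 between the CypD OE-labelled libraries and Control, 126 alternative values were computed. All kept their direction and their side of the threshold. *Acta2* had 14 of these values and each other call 16. It could not be tested with the filter of 5 TPM or the filter applied outside CypD KO, so its stability is partly built in. The number of members called in CypD KO ran from 5 (filter of 5 TPM, which tests 5 members, or filter applied outside CypD KO, which tests 6) to 7 (fit of the 2 groups), and from 6 to 7 when single libraries were left out. It was 2 under every alternative for the CypD OE-labelled libraries, and 2 to 3 without single libraries. The 2 calls between Control and WT were less stable, with 1 without a filter on low TPM, 0 in a fit of the 2 groups, 0 without the trend, and 0 to 2 without single libraries. Called steps in the order of groups ran from 8 to 10. Some differences that had not been called changed sign without 1 library. *Actn1* between Control and WT ran from -0.07 (without WT replicate 2) to 0.09, and was -0.02 without Control replicate 2. *Tpm2* ran from -0.99 (without Control replicate 1) to 0.09 (without Control replicate 2) between the CypD OE-labelled libraries and Control, and from -0.26 (without Control replicate 2) to 0.83 (without Control replicate 1) between Control and WT. *Cnn2* between the CypD OE-labelled libraries and Control ran from -0.03 (without CypD OE replicate 1) to 0.10 (without CypD OE replicate 2). Over all genes, the 1634 higher and 1635 lower in Control became 998 and 983 in a fit of the 2 groups, where fewer libraries estimate the spread, and 939 to 1073 higher and 983 to 1082 lower without a WT or Control library. Counts over gene lists and over all genes moved by over 1.5 times, or to or from 0, in 102 cases, those over all genes included. Leaving out a library leaves 1 in its group, which is then assumed to vary like the others. Replicate numbers mark no stated pairing, and with 2 libraries a group the deviations of same-numbered libraries correlated by 0.108 between WT and CypD KO and by -0.0295 to 0.0338 otherwise. With the number as a replicate block, 6, 2 and 2 members were called in the 3 comparisons and 10 steps in the order. *Tagln2*, *Cnn1* and, outside CypD KO, *Acta2* lie at the limit that depth sets.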

Other observations

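The other branch of SRF targets and the focal adhesion genes were read beside the members. Of 9 immediate early genes that TCFs and SRF control, 6 were tested. In CypD KO, 5 of the 6 were higher and 1 lower than in WT (median difference of log2(TPM + 1) 0.57), against 30.1% and 18.4% of all genes tested. *Junb*, which encodes a subunit of the AP-1 transcription factor, was at 7.65 and 6.63 TPM in WT against 28.1 and 28.9 TPM in CypD KO (1.86, limma adjusted p = 2.96e-05), and *Fos* was 0.78 higher (limma adjusted p = 0.00878). In the CypD OE-labelled libraries, 4 were higher and 1 lower than in Control (median 0.36), against 19.0% and 18.3% of all genes tested. *Egr1* was at 0.99 and 1.21 TPM in Control against 4.99 and 5.60 TPM in the CypD OE-labelled libraries (1.58, limma adjusted p = 0.000212), and *Ier2* was 0.92 higher (limma adjusted p = 0.000524). Between Control and WT, 0 were higher and 1 lower, against 12.1% of all genes tested in each direction.

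All 10 focal adhesion and linker genes were tested, and in CypD KO 7 were higher and 1 lower than in WT (median 0.39), against 30.1% and 18.4% of all genes. *Pxn* and *Ilk*, which encode the adhesion scaffold paxillin and integrin-linked kinase, were higher by 0.85 (limma adjusted p = 0.000436) and 0.82 (limma adjusted p = 2.85e-05). In the CypD OE-labelled libraries, 3 of the 10 were higher and 2 lower than in Control (median 0.16), against the same 19.0% and 18.3% of all genes. The 2 lower became 1 without a filter on low TPM, with a filter of 5 TPM or without the trend, and the 3 higher became 1 without the trend. The tensin genes moved in opposite directions there. *Tns1* was at 4.62 and 2.20 TPM in Control against 0.59 and 0.53 TPM in the CypD OE-labelled libraries (-1.44, limma adjusted p = 0.0136), while *Tns3* was at 29.5 and 32.6 TPM and at 61.3 and 61.2 TPM (0.96, limma adjusted p = 6.89e-05). Between Control and WT, 1 was higher and 1 lower, against 12.1% of all genes tested in each direction.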
